A study of Mus musculus with 4 samples.

Results

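The genes described are 10 members of the Bcl2 family, which set the threshold for death by the mitochondrial pathway: Bcl2, Bcl2l1, Mcl1, Bax, Bak1, Bcl2l11, Bid, Bbc3, Pmaip1 and Bad. They were found by the gene name that the array files give each probe. That gave 10 genes of 27962, with 19 probes of 41174 in 46 spots per array, and all 19 probes passed the filter on dim signals. The study asked how TGFb turns CD4 T cells into regulatory T cells (Treg) and how IL6 hinders this. CD4 T cells of mouse lymph nodes were grown for 4 days on plates coated with anti-CD3 (1 ug/ml), which triggers the T cell receptor, and were held for 3 days in cytokines. All cultures held IL2 at 100 units/ml. TGFb (4 ng/ml) and IL6 (25 ng/ml) were both added in 1 condition (TGFb with IL6, 4 arrays), TGFb without IL6 in another (TGFb, 3 arrays) and IL6 without TGFb in the next (IL6, 3 arrays), while the last held neither (IL2 alone, 3 arrays). Each array carried the Treg and the T-effector RNA of 1 condition in opposite dyes, so there were 13 arrays and 26 channels. The labels give neither the mouse strain and age nor how the Treg and T-effector cells were separated, nor whether the arrays within a condition stand for different cultures or mice. All p-values below therefore rest on array-to-array spread, and this spread may be technical.

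Proteins of this family act at the outer membrane of mitochondria. Bcl2, Bcl-xL (the product of Bcl2l1) and Mcl1 keep a cell alive by holding their pro-death relatives in check. Bax and Bak, once free, open pores through which cytochrome c escapes and caspases become active. Bim (Bcl2l11), Bid, Puma (Bbc3), Noxa (Pmaip1) and Bad are sensors that carry only the BH3 domain in common with the rest, and they tip the balance when growth factors run short, when DNA is damaged or when death receptors are engaged. In T cells, IL2 is known to keep Bcl2 levels up, and Bim is known for removing self-reactive and spent T cells.

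Signals are background-corrected, normalized log2 intensities of the brightest probe of each gene, with the mean effect of the dye removed. A constant of 50 was added to every intensity, which compresses differences of dim probes. Between 38.9% and 69.7% of probes were well above background in Treg channels and between 41.7% and 67.0% in T-effector channels. The 5 slides are lettered A to E. No array on slides A or C had TGFb and every array on slide B had it, TGFb met IL2 alone only on slide D, and TGFb with IL6 met IL6 only on slide E. Slide B had a raised Cy3 background (the median of negative control spots over their local background was 118 to 123 intensity units, against 3.59 to 25.4 elsewhere), and position on the slide accounted for 31.6% to 51.2% of the variance in brighter spots' log ratios on slide E arrays (1.38% to 18.6% on the other slides). Foxp3, the factor that defines Treg, had the higher signal in Treg samples in every condition, by 2.16 in TGFb with IL6, 1.95 in TGFb, 2.12 in IL6 and 2.39 in IL2 alone (log2; adjusted p at most 5.88e-05). Of the 6 listed Treg markers, 5, Foxp3 among them, were also well above background in all 13 T-effector channels. Y-chromosome transcripts were uneven between the 2 RNAs. Among Treg channels, Ddx3y was well above background in 11, Jarid1d in 10, Uty in 6 and Eif2s3y in 13, and among T-effector channels in 0, 0, 1 and 5. Arrays 1 and 3 of the IL6 condition, both on slide E, had Ddx3y, Jarid1d and Uty in neither channel but Eif2s3y in the Treg channel. Some of the results that use these arrays, but not all, are also given without them, which leaves 1 IL6 array.

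A gene was called at an adjusted p of 0.05 or less in limma's moderated test, with Benjamini-Hochberg adjustment over all 20061 genes tested. Of 160 tests (10 genes in 16 comparisons), 22 were called, in 8 genes. Bcl2, Bid and Bbc3 were each called in 4 comparisons, Bcl2l11 in 3, Bax, Bak1 and Bcl2l1 in 2 each and Mcl1 in 1, while Bad and Pmaip1 were called in none. Most calls, 17 of 22, came from comparisons of TGFb with IL6 against TGFb or against IL6. In these comparisons 0.279% to 11.4% of all genes were called, and in the remaining ones 0% to 10.9%. TGFb with IL6 also had the most arrays.

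Between Treg and T-effector samples of the same array, few members differed. With TGFb and IL6, 1 of 10 members (Bcl2, lower) was called, against 5.8% of all genes. In TGFb 0 of 10 were called in limma's test, against 5.92% of all genes, and 2 had an unadjusted p under 0.05. In IL6 1 of 10 (Bbc3, higher) was called, against 5.8% of all genes. In IL2 alone 1 of 10 (again Bbc3, higher) was called, against 10.9% of all genes. The median log2 difference of the 10 members lay between -0.07 and -0.02 in the 4 conditions, and that of all genes between -0.01 and 0.02. These counts are near the background, so they show no excess of called members over all genes. The called members are described below gene by gene, with their values.

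Between conditions, more members were called, and mostly downward. With TGFb and IL6, set against IL6, 4 of 10 members were lower and 0 higher in Treg samples, where 10.3% of all genes were called, 5.33% lower and 4.99% higher. In T-effector samples 4 were lower and 1 higher, and 11.4% of all genes were called, 6.06% lower and 5.29% higher. The median of the members was -0.26 in Treg samples and -0.05 in T-effector samples, against -0.03 and 0.01 over all genes. TGFb with IL6 against TGFb gave 1 higher and 2 lower members in Treg samples, where 5.71% of all genes were called, 2.93% higher and 2.79% lower. It gave 2 higher and 1 lower in T-effector samples, where 7.56% were called, 4.3% higher and 3.26% lower. The medians of the members were -0.34 in Treg and -0.22 in T-effector samples, and both medians over all genes were -0.03. TGFb against IL2 alone gave 0 called members in Treg samples (7.94% of all genes), with 3 at an unadjusted p under 0.05. In T-effector samples it gave 2 called members, Bcl2 (higher) and Bcl2l11 (lower), against 4.43% of all genes. IL6 against IL2 alone gave 0 called members in either sample (0.957% of all genes in Treg and 0.827% in T-effector samples), with 2 and 3 at an unadjusted p under 0.05. Since TGFb with IL6 stands in both of the first comparisons, they share samples, and their lists of members are not independent.

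**Figure D1:**
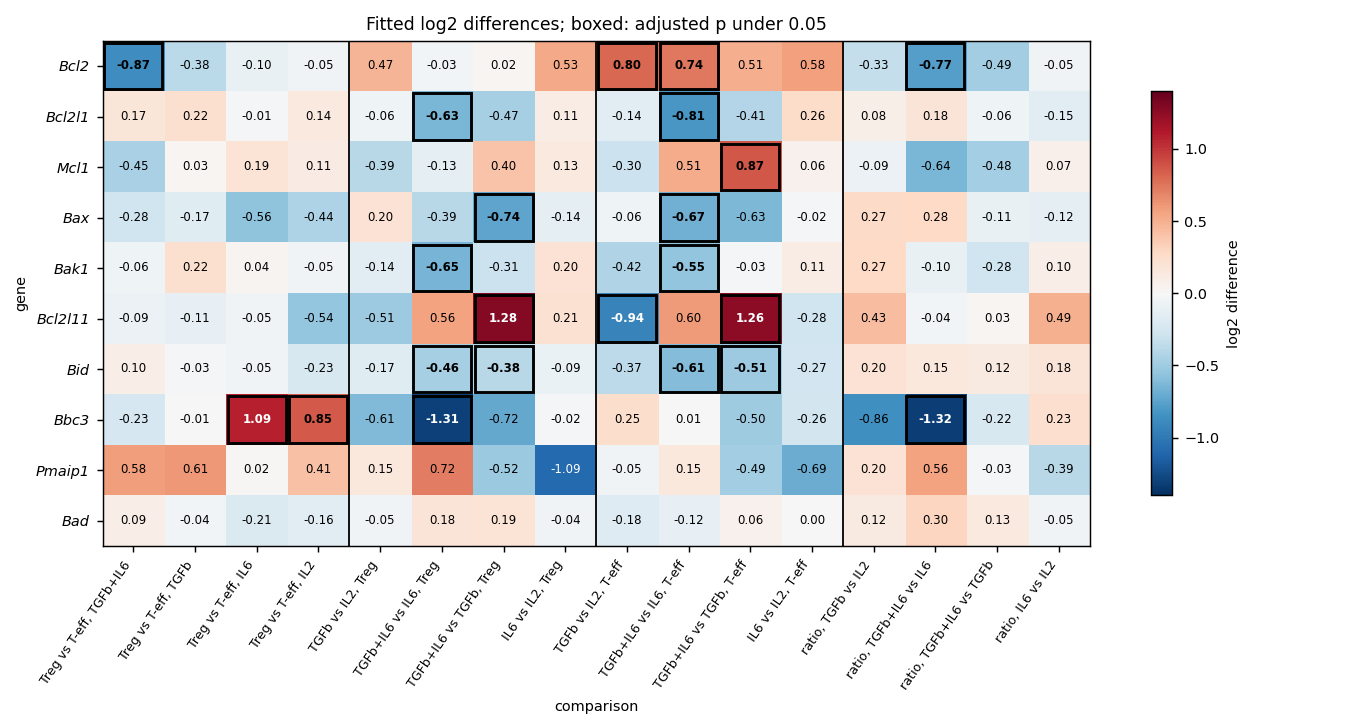
Log2 differences of the 10 members (rows) in the 16 comparisons (columns), with calls at an adjusted p of 0.05 or less boxed. The boxes gather in the columns of TGFb with IL6, where Bcl2l11 was higher by 1.28 in Treg and 1.26 in T-effector samples than with TGFb, and Bbc3 differed by -1.31 in Treg samples from IL6.

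Bcl2, the founding survival protein, was lower in Treg than in T-effector samples when both cytokines were present, and the T-effector signal of its tested probe was higher in both conditions with TGFb than in their counterparts without it. In TGFb with IL6 its probe (chr1:106438098-106438157 on mm7, as the files place it) read 11.22, 11.44, 11.09 and 11.74 in Treg samples, against 12.24, 12.51, 11.87 and 12.35 in T-effector samples. All 4 Treg values lay below all 4 T-effector values. The log2 difference was -0.87 ± 0.12 (SE, n = 4 arrays), 1.83-fold lower in Treg, with an adjusted p of 0.00208 in limma. Fewer cells of a type and less RNA per cell cannot be told apart in bulk RNA, here or for any other gene. The call held in 24 of 25 alternatives, and without slide B the difference was -0.90 with an adjusted p of 0.0587.

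In TGFb the Bcl2 probe read 11.29, 11.42 and 11.33 in Treg samples, against 11.66, 12.02 and 11.51 in T-effector samples. The values again did not overlap, but the difference of -0.38 had an adjusted p of 0.16. In IL6 the values were 11.52, 11.52 and 11.19 in Treg samples, against 11.64, 11.46 and 11.42 in T-effector samples. In IL2 alone they were 11.37, 10.68 and 10.59 in Treg samples, against 11, 10.92 and 10.88 in T-effector samples. In both of these conditions the groups overlapped on the tested probe, with differences of -0.10 (95% interval -0.41 to 0.21) in IL6 and -0.05 (-0.36 to 0.26) in IL2 alone. The other probes gave another pattern, with mean log2 ratios of -0.43 and -0.72 in IL6, -0.18 and -0.51 in IL2 alone and -0.11 and -0.09 in TGFb. In IL6 their Treg values lay below all T-effector values (at most 10.52 against at least 10.64, and 10.96 against 11.13).

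Across conditions, T-effector Bcl2 averaged 12.24 ± 0.27 in TGFb with IL6 (SD, n = 4), 11.73 ± 0.26 in TGFb, 11.51 ± 0.12 in IL6 and 10.93 ± 0.06 in IL2 alone (n = 3 each). On the tested probe TGFb exceeded IL2 alone by 0.80 ± 0.20 (1.74-fold, adjusted p = 0.02 in limma; the other probes gave 0.39 with 0.102 and 0.13 with 0.851), and TGFb with IL6 exceeded IL6 by 0.74 ± 0.18 (adjusted p = 0.0102). Those 4 groups stand in this order, and TGFb with IL6 against TGFb (0.51, adjusted p = 0.105) and IL6 against IL2 alone (0.58, adjusted p = 0.394) did not pass the test. On slide D, which holds both conditions in the same dyes, T-effector Bcl2 was 0.60 higher in TGFb than in IL2 alone. On slide E it was 0.61 higher in TGFb with IL6 than in IL6. The first call was lost without array 2 or 3 of IL2 alone (0.79 with an adjusted p of 0.0534, and 0.77 with 0.0721) and without array 1 or 2 of TGFb (0.84 with 0.0655, and 0.66 with 0.0853). The second was lost without array 2 of TGFb with IL6 (0.64, adjusted p = 0.0524), without IL6 array 3 (0.71, 0.0537), without slide B (0.54, 0.0889) and without both IL6 arrays lacking Ddx3y (0.79, 0.145). Treg samples averaged 11.37 ± 0.29 in TGFb with IL6 (n = 4), 11.35 ± 0.07 in TGFb, 11.41 ± 0.19 in IL6 and 10.88 ± 0.43 in IL2 alone (n = 3 each), and no comparison between them was called on the tested probe. For TGFb against IL2 alone its Treg difference was 0.47 (adjusted p = 0.176), and the other probes gave 0.45, with an adjusted p of 0.0324 over all probes, and 0.55, with 0.282. B cell markers moved with TGFb in the T-effector samples as well: the summed log2 signal of the 5 genes measured was 9.02 to 10.57 in TGFb with IL6 and 9.21 to 10.39 in TGFb, against 10.01 to 10.24 in IL6 and 11.38 to 11.56 in IL2 alone. In Treg samples it was 8.94 to 9.44 in TGFb with IL6 and 9.19 to 9.44 in TGFb, against 9.66 to 10.81 in IL6 and 10.19 to 11.40 in IL2 alone. Their part in the results of any member was not tested. Of those 5 genes, 1 was well above background in all Treg channels and 3 in all T-effector channels.

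**Figure D2:**
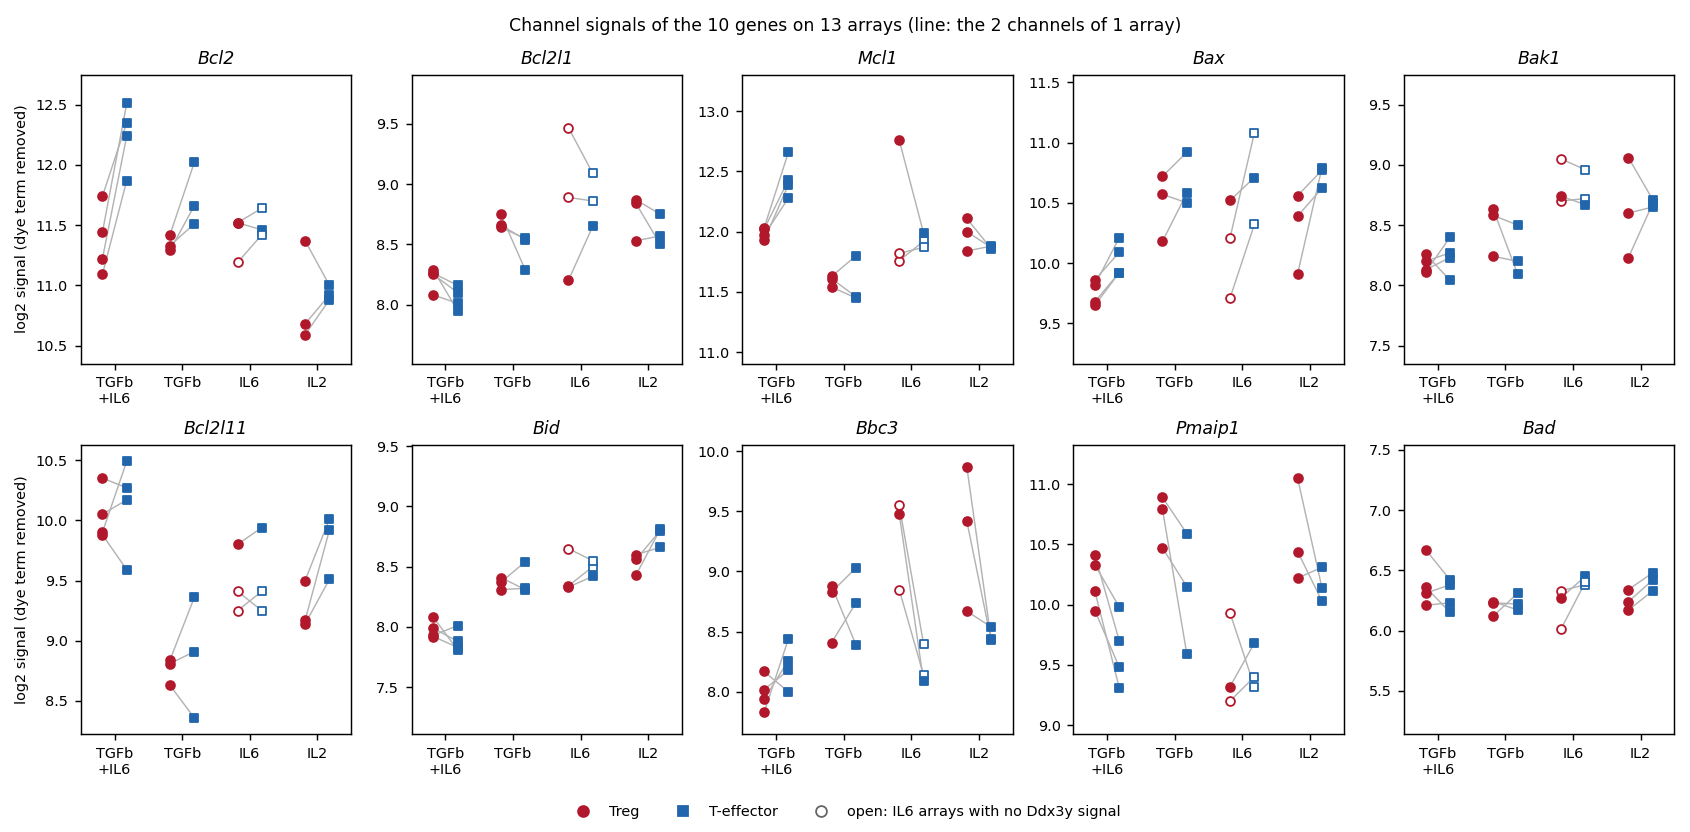
Log2 signal of each member's tested probe in every Treg (red, left) and T-effector (blue, right) channel of the 4 conditions. Open symbols mark the 2 IL6 arrays without Ddx3y signal. The Bcl2 channels separate in TGFb with IL6 (11.09 to 11.74 in Treg, against 11.87 to 12.51 in T-effector samples), and the Bbc3 channels separate in IL6 (8.85 to 9.55 against 8.09 to 8.40).

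Mcl1, a short-lived survival protein that T cells and Treg need, was higher in TGFb with IL6 than in TGFb. In T-effector samples its probe (chr3:95536882-95536941 on mm7) read 12.66, 12.43, 12.28 and 12.39 in TGFb with IL6, against 11.80, 11.45 and 11.46 in TGFb. The groups did not overlap, and the difference was 0.87 ± 0.17 (1.83-fold, adjusted p = 0.00235 in limma). In Treg samples it read 12.03, 12.02, 11.97 and 11.93 in TGFb with IL6, against 11.63, 11.54 and 11.61 in TGFb. These did not overlap either, but the difference of 0.40 had an adjusted p of 0.256. On slides B, D and E the same-dye difference was 0.98, 0.82 and 0.86 in T-effector samples and 0.48, 0.36 and 0.40 in Treg samples. The T-effector call was lost without slide B, at 0.84 and an adjusted p of 0.116, and held in the other 24 of 25 alternatives.

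In the conditions without TGFb the Treg values of Mcl1 were 11.76, 12.76 and 11.82 in IL6 and 12, 12.11 and 11.84 in IL2 alone. IL6 array 2, the only IL6 array with Ddx3y signal, was the high one. The T-effector values were 11.92, 11.99 and 11.87 in IL6 and 11.87, 11.86 and 11.88 in IL2 alone, with SDs of 0.06 and 0.01. With TGFb and IL6, Mcl1 was lower in Treg than in T-effector samples on all 4 arrays, but the difference of -0.45 ± 0.13 had an adjusted p of 0.0718. Set against IL6, TGFb with IL6 gave a difference of -0.13 in Treg and 0.51 in T-effector samples, neither past the test (adjusted p = 0.761 and 0.0633). Without the 2 IL6 arrays lacking Ddx3y, the Treg difference became -0.80 with an adjusted p of 0.00349.

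Bcl2l1, which encodes Bcl-xL, was lower in TGFb with IL6 than in IL6 in both samples. In Treg samples its probe (chr2:152521752-152521811 on mm7) read 8.29, 8.26, 8.08 and 8.25 in TGFb with IL6, against 9.47, 8.20 and 8.89 in IL6. IL6 array 2 lay within the range of the other group, and arrays 1 and 3 lay above it. The T-effector signal was 7.95, 8.16, 8.01 and 8.10 in TGFb with IL6, against 9.09, 8.65 and 8.86 in IL6, without overlap. The differences were -0.63 ± 0.18 in Treg (adjusted p = 0.0295 in limma) and -0.81 ± 0.18 in T-effector samples (adjusted p = 0.00504). The Treg difference rests on the 2 IL6 arrays without Ddx3y: it was 0.02 with an adjusted p of 0.981 when both were left out, and -0.33 (adjusted p = 0.239) without array 1 alone. It also missed the threshold without slide B (-0.67, adjusted p = 0.151), without IL6 array 3 (-0.61, adjusted p = 0.13) and without any 1 of the 4 arrays of TGFb with IL6 (-0.66 to -0.59, adjusted p 0.055 to 0.0852). The T-effector difference was -0.60 without both IL6 arrays (adjusted p = 0.0539). In TGFb the values were 8.75, 8.64 and 8.66 in Treg and 8.29, 8.55 and 8.54 in T-effector samples, and in IL2 alone they were 8.53, 8.87 and 8.84 in Treg and 8.57, 8.75 and 8.50 in T-effector samples. All TGFb with IL6 values lay below all TGFb values in both samples, with differences of -0.47 in Treg (adjusted p = 0.179) and -0.41 in T-effector samples (adjusted p = 0.231).

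Bax, a pore-forming effector, was lower in TGFb with IL6 than in TGFb in Treg samples, and than in IL6 in T-effector samples. In Treg samples its probe, spotted 10 times per array, read 9.65, 9.82, 9.68 and 9.86 in TGFb with IL6, against 10.57, 10.72 and 10.18 in TGFb. T-effector samples gave 9.92, 10.21, 9.92 and 10.09 in TGFb with IL6, against 10.50, 10.92 and 10.58 in TGFb. Both pairs of groups were separate. The difference was -0.74 ± 0.19 in Treg (1.67-fold, adjusted p = 0.0244 in limma) and -0.63 ± 0.19 in T-effector samples (adjusted p = 0.052). With the array number as a block, since arrays 1 to 3 of these 2 conditions share slide and dye, the Treg difference was -0.77 with an adjusted p of 0.0576, which ended the call. It was also lost without array 1 or 2 of TGFb (-0.70 with an adjusted p of 0.111, and -0.62 with 0.154), without array 1, 2 or 3 of TGFb with IL6 (-0.76 to -0.70, adjusted p 0.0567 to 0.0839), without slide B (-0.71, 0.327) and without slide E (-0.68, 0.118). In IL6 the values were 9.71, 10.52 and 10.21 in Treg and 10.32, 10.71 and 11.08 in T-effector samples. In IL2 alone they were 9.91, 10.39 and 10.56 in Treg and 10.79, 10.62 and 10.77 in T-effector samples. The Treg value was below the T-effector value on all 3 arrays of both conditions, but neither difference passed the test (-0.56 in IL6, adjusted p = 0.0568, and -0.44 in IL2 alone, adjusted p = 0.088). Set against IL6, TGFb with IL6 was 1.59-fold lower in T-effector samples (log2 difference -0.67 ± 0.19, adjusted p = 0.0271), while the Treg groups overlapped and their difference of -0.39 had an adjusted p of 0.252. The T-effector difference was -0.65 with an adjusted p of 0.154 without the 2 IL6 arrays lacking Ddx3y. Without IL6 array 3 alone it was -0.45 (adjusted p = 0.247), and the call was also lost without IL6 array 2 (-0.67, 0.0503), without array 1, 3 or 4 of TGFb with IL6 (-0.69 to -0.63, 0.0532 to 0.081) and without slide B (-0.79, 0.0565).

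Bak1, which encodes the other pore-forming effector, was lower in TGFb with IL6 than in IL6 in both samples on its tested probe only. The other probe averaged 8.01 in TGFb with IL6 against 8.04 in IL6 in Treg samples, and 8.01 against 8.12 in T-effector samples. In Treg samples the tested probe read 8.20, 8.26, 8.13 and 8.11 in TGFb with IL6, against 8.70, 8.74 and 9.05 in IL6. T-effector values were 8.27, 8.04, 8.23 and 8.40 in TGFb with IL6, against 8.72, 8.67 and 8.96 in IL6. Neither pair of groups overlapped. The differences were -0.65 ± 0.17 in Treg (adjusted p = 0.0123 in limma) and -0.55 ± 0.17 in T-effector samples (adjusted p = 0.0335). Without the 2 IL6 arrays lacking Ddx3y they were -0.56 (adjusted p = 0.257) and -0.44 (adjusted p = 0.429). Leaving out IL6 array 3 alone ended both calls, at -0.54 (adjusted p = 0.123) in Treg and -0.47 (0.171) in T-effector samples. The T-effector call was also lost without IL6 array 1 or 2 (-0.58 with an adjusted p of 0.0761, and -0.61 with 0.0618), without array 1, 2 or 3 of TGFb with IL6 (-0.56 to -0.47, 0.0695 to 0.115) and without slide B (-0.52, 0.0935). In TGFb the values were 8.58, 8.63 and 8.24 in Treg and 8.50, 8.09 and 8.20 in T-effector samples. In IL2 alone they were 8.23, 9.06 and 8.60 in Treg and 8.68, 8.71 and 8.65 in T-effector samples. Treg and T-effector values of Bak1 overlapped in all 4 conditions, and the largest of the 4 differences was 0.22 in TGFb (95% interval -0.11 to 0.55).

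Bcl2l11, which encodes the death sensor Bim, differed more between TGFb with IL6 and TGFb than any other member, and alike in both samples. In Treg samples its probe (chr2:127903168-127903227 on mm7) read 9.88, 9.90, 10.05 and 10.35 in TGFb with IL6, against 8.63, 8.84 and 8.81 in TGFb. In T-effector samples it read 9.59, 10.49, 10.17 and 10.27 in TGFb with IL6, against 8.36, 9.36 and 8.91 in TGFb. The lowest value with both cytokines exceeded the highest with TGFb in either sample. The difference was 1.28 ± 0.23 in Treg (2.43-fold, adjusted p = 0.000827 in limma) and 1.26 ± 0.23 in T-effector samples (2.39-fold, adjusted p = 0.000907). The call held in all 25 alternatives in both samples, between 1.11 and 1.35 in Treg and between 1.0 and 1.5 in T-effector samples. On slides B, D and E, which hold both conditions in the same dyes, it was 1.05, 1.25 and 1.24 in Treg and 1.14, 1.26 and 1.23 in T-effector samples. The difference of these 2 differences was 0.03 ± 0.23 (95% interval -0.47 to 0.53).

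**Figure D3:**
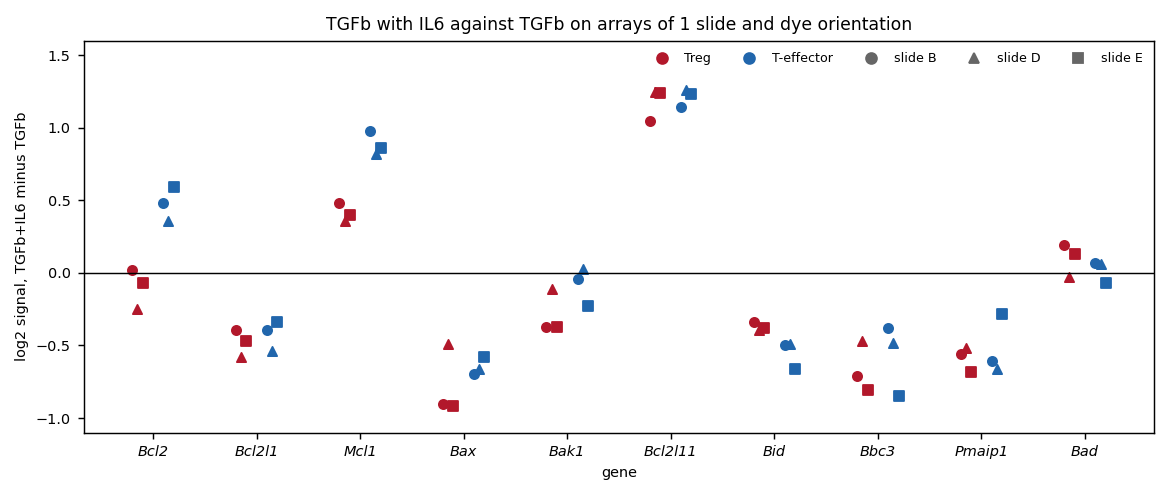
Same-dye differences of TGFb with IL6 minus TGFb for each member on slides B, D and E, in Treg (red, left) and T-effector samples (blue, right). The 6 Bcl2l11 points lie between 1.05 and 1.26, the Mcl1 points between 0.36 and 0.98, and all 6 points of Bid and of Bax lie below 0.

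In TGFb, T-effector Bcl2l11 lay below IL2 alone, and in the Treg samples of IL2 alone it lay below the T-effector samples. The T-effector values were 8.36, 9.36 and 8.91 in TGFb, against 10.01, 9.51 and 9.92 in IL2 alone. This difference of -0.94 ± 0.24 was called (1.92-fold, adjusted p = 0.029 in limma), and was -0.61 on slide D. It lost its call without array 1 or 3 of IL2 alone (-0.85 with an adjusted p of 0.17, and -0.89 with 0.127), without array 1 or 3 of TGFb (-0.69 with 0.211, and -0.95 with 0.12) and without slide E (-0.71, 0.104). The Treg values in IL2 alone were 9.5, 9.14 and 9.17, all below the T-effector values of the same condition, with a difference of -0.54 and an adjusted p of 0.068. In IL6 the probe read 9.41, 9.80 and 9.25 in Treg and 9.25, 9.94 and 9.41 in T-effector samples, so those samples overlapped. Set against IL6, TGFb with IL6 was 0.56 higher in Treg and 0.60 higher in T-effector samples, and neither difference passed the test (adjusted p = 0.143 and 0.103). The summed log2 signal of 6 CD8 T and NK cell markers in Treg samples was 12.03 to 12.29 in TGFb with IL6 and 11.64 to 12.10 in TGFb. It was 10.46 to 11.82 in IL6 and 10.46 to 11.67 in IL2 alone. Only Cd8a and Klrd1 were called, both higher, in Treg samples for TGFb against IL2 alone and for TGFb with IL6 against IL6. The median log2 differences of the 6 genes were 0.35 and 0.16. For TGFb with IL6 against TGFb, only Klrd1 was called in Treg samples, and the median was -0.08. For IL6 against IL2 alone, 0 of the 6 genes were called in Treg samples. In T-effector samples the sum was 11.46 to 11.93 in all conditions, but 1 of the 6 genes, Klrd1, was called there, higher in TGFb with IL6 than in TGFb by 1.85 (adjusted p = 7.27e-06 in limma) and than in IL6 by 1.81 (7.4e-06). Klrd1 encodes a receptor subunit of NK and CD8 T cells, and its Treg differences were 1.79 and 2.49 for these comparisons. Of these 6 genes, 3 were well above background in all Treg channels and 3 in all T-effector channels. Their part in the Bcl2l11 values was not tested.

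The 250 bases before an annotated start of transcription are shown for the genes whose difference between conditions within 1 sample was largest in each direction (Bcl2l11 and Bbc3) and for Mcl1, which was higher with Bcl2l11 in T-effector samples. FOXO factors are known to act on Bcl2l11 and Bbc3, STAT factors carry the signals of IL2 and IL6, and p53 is known to act on Bbc3, Pmaip1 and Bax, so the windows were searched on both strands for GTAAACA (FOXO), TTCNNNGAA (STAT) and the p53 half-site. The sequences are RefSeq's on GRCm38.p6, with matches in capitals, and RefSeq windows were used for 9 of the 10 members (15 windows). No window of Pmaip1 was searched. Of 2 windows of Bcl2l11 and 3 of Bbc3, each at another start, the one with a match is printed, and the others held none.
Bcl2l11 (chr2:128125788-128126037, plus strand): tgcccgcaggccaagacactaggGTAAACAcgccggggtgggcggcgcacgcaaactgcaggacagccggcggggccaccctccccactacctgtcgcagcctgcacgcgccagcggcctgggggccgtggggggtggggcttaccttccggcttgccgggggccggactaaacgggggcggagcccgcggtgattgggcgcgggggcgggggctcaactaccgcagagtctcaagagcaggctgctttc
Bbc3 (chr7:16310011-16310260, plus strand): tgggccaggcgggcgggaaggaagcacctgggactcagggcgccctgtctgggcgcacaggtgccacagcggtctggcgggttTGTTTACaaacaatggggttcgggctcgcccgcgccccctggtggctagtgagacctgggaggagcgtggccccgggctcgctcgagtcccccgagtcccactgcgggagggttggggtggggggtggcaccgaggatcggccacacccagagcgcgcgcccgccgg
Mcl1 (chr3:95658471-95658720, plus strand): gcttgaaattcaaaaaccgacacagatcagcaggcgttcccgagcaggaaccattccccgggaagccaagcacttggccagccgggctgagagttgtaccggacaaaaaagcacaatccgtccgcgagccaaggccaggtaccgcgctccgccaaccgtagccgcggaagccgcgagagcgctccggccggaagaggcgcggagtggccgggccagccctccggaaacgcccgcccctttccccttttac
The FOXO letters begin 227 bases before the start in Bcl2l11 and, on the opposite strand, 167 bases before it in Bbc3, and no other member window held them. They were in 3.17% of all 32851 mouse windows of this length and in 2 of the 15 of the members. The STAT letters were in 7.02% of all windows and in 0 of the 15. The p53 half-site was in 7.13% of all windows and in 1 of the 15, that of Bax, 201 bases before the start. These are matches of letters and not measured binding sites.

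Bid, a sensor that links death receptors to mitochondria, was lower in TGFb with IL6 than in TGFb or in IL6, in both samples. In Treg samples it read 7.99, 8.08, 7.92 and 7.93 in TGFb with IL6, against 8.37, 8.41 and 8.31 in TGFb. In T-effector samples it read 7.88, 7.81, 7.83 and 8.01 in TGFb with IL6, against 8.54, 8.31 and 8.32 in TGFb. The SD within these groups was at most 0.13, and neither pair of groups overlapped. In IL6 the values were 8.34, 8.33 and 8.65 in Treg and 8.50, 8.42 and 8.55 in T-effector samples. In IL2 alone they were 8.56, 8.60 and 8.43 in Treg and 8.80, 8.66 and 8.81 in T-effector samples. The T-effector means followed the order 7.88 in TGFb with IL6, 8.39 in TGFb, 8.49 in IL6 and 8.76 in IL2 alone.

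Against TGFb, the Bid difference in TGFb with IL6 was -0.38 ± 0.10 in Treg (adjusted p = 0.0234 in limma) and -0.51 ± 0.10 in T-effector samples (adjusted p = 0.00215). Against IL6 it was -0.46 ± 0.10 in Treg (adjusted p = 0.00378) and -0.61 ± 0.10 in T-effector samples (adjusted p = 0.000258). The T-effector calls of Bid held in 24 of 25 and 23 of 24 alternatives, with the exception of the omission of slide E (-0.44 with an adjusted p of 0.104 against TGFb, and -0.58 with 0.0992 against IL6). The Treg call against TGFb was lost without any 1 of the 3 arrays of TGFb (-0.41 to -0.36, adjusted p 0.0682 to 0.1), without array 1, 3 or 4 of TGFb with IL6 (-0.39 to -0.37, 0.0542 to 0.0661), without slide B (-0.38, 0.184) and without slide E (-0.38, 0.217). The Treg call against IL6 was lost without IL6 array 3 (-0.34, adjusted p = 0.0748), without both IL6 arrays lacking Ddx3y (-0.33, 0.219) and without slide E (-0.31, 0.422). The differences on slides B, D and E were -0.34, -0.39 and -0.38 in Treg and -0.50, -0.49 and -0.66 in T-effector samples against TGFb. In T-effector samples, Bid in TGFb against IL2 alone differed by -0.37 (adjusted p = 0.0578).

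Bbc3, which encodes Puma, had higher signals in Treg samples than in T-effector samples in both conditions without TGFb. In IL6 its probe (chr7:14080459-14080518 on mm7) read 8.85, 9.48 and 9.55 in Treg samples, against 8.14, 8.09 and 8.40 in T-effector samples. In IL2 alone it read 8.67, 9.87 and 9.42 in Treg samples, against 8.54, 8.44 and 8.43 in T-effector samples. Treg values exceeded T-effector values in both, though array 1 of IL2 alone did so by 0.13. The differences were 1.09 ± 0.24 in IL6 (2.12-fold, adjusted p = 0.0251 in limma) and 0.85 ± 0.24 in IL2 alone (1.81-fold, adjusted p = 0.0432). In TGFb with IL6 the values were 8.02, 8.17, 7.94 and 7.83 in Treg and 8.18, 8.0, 8.26 and 8.44 in T-effector samples. In TGFb they were 8.83, 8.88 and 8.41 in Treg and 9.03, 8.39 and 8.74 in T-effector samples. Where TGFb was present the samples overlapped, with differences of -0.23 (95% interval -0.68 to 0.22) in TGFb with IL6 and -0.01 (-0.54 to 0.52) in TGFb.

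The Bbc3 difference in IL6 was 1.38 with an adjusted p of 0.0855 without the 2 arrays lacking Ddx3y. It was 0.93 (0.11) without IL6 array 2, 1.04 (0.192) without array 3 and 0.31 (0.385) with median centring in place of loess. The call in IL2 alone was lost in 14 of 25 alternatives, among them the omission of array 2 (0.56, adjusted p = 0.282) or array 3 of IL2 alone (0.78, 0.127), a background fit over all spots (0.52, 0.21) and median centring (0.08, 0.839). It was also lost at 0.83 to 0.86 (adjusted p 0.0525 to 0.0682) without TGFb array 3, IL6 array 3 or any 1 of the 4 arrays of TGFb with IL6. Among Treg samples, Bbc3 was 2.47-fold lower in TGFb with IL6 than in IL6 (log2 difference -1.31 ± 0.25, adjusted p = 0.00111), and -1.48 (adjusted p = 0.0202) without the IL6 arrays lacking Ddx3y. The difference on slide E was -0.83, and without that slide it was -1.48 with an adjusted p of 0.112. T-effector samples differed by 0.01 (95% interval -0.51 to 0.53) in the same comparison. Against TGFb, TGFb with IL6 gave -0.72 in Treg (adjusted p = 0.109) and -0.50 in T-effector samples (adjusted p = 0.306).

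Pmaip1, which encodes Noxa, an antagonist of Mcl1, was called in no comparison, though its differences were not small. In TGFb with IL6 it read 10.11, 10.33, 9.95 and 10.41 in Treg and 9.31, 9.98, 9.48 and 9.70 in T-effector samples, and the Treg value was the higher on all 4 arrays (0.58 ± 0.20, adjusted p = 0.12). In TGFb it was the higher on all 3 arrays, at 10.79, 10.89 and 10.47 in Treg and 9.59, 10.59 and 10.15 in T-effector samples (0.61, adjusted p = 0.174). In IL6 it read 9.93, 9.32 and 9.20 in Treg and 9.32, 9.68 and 9.40 in T-effector samples. All 3 IL6 values lay below all 3 values of IL2 alone in both samples, and IL2 alone stood at 10.22, 10.44 and 11.05 in Treg and 10.31, 10.03 and 10.14 in T-effector samples. The difference of IL6 against IL2 alone was -1.09 ± 0.27 in Treg (adjusted p = 0.0654) and -0.69 ± 0.27 in T-effector samples (adjusted p = 0.658), and on slide A it was -0.89 and -0.63.

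Bad, a sensor held inactive by growth factor signals, gave dim signals, 6.01 to 6.67 over all Treg channels and 6.15 to 6.48 over all T-effector channels. It was well above background in 3 of 13 Treg and 7 of 13 T-effector channels, so its differences carry little information. Its tested probe (chr19:6770968-6771027 on mm7) runs in the direction opposite to that of the other Bad probe, which was well above background in 2 channels of each sample.

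Whether a difference between Treg and T-effector samples changed with the cytokines was tested on the ratios. Between TGFb with IL6 and IL6, the ratio differed for 2 of 10 members, against 3.92% of all genes: Bbc3 by -1.32 ± 0.32 (adjusted p = 0.0447 in limma) and Bcl2 by -0.77 ± 0.19 (adjusted p = 0.0457). The log2 ratio of Bbc3 was -0.16, 0.17, -0.32 and -0.61 in TGFb with IL6, against 0.71, 1.39 and 1.15 in IL6. That of Bcl2 was -1.02, -1.07, -0.78 and -0.61, against -0.12, 0.05 and -0.23. The groups did not overlap for either gene. Both calls lie just inside the threshold. Of 13 omissions of 1 array, 9 ended the Bbc3 call (-1.48 to -1.16, adjusted p 0.055 to 0.15) and 11 ended the Bcl2 call (-0.86 to -0.69, adjusted p 0.0504 to 0.144). Among the omissions that ended both were array 3 of TGFb, array 1 of TGFb, any 1 of the 4 arrays of TGFb with IL6 and arrays 2 and 3 of IL6. Without the IL6 arrays lacking Ddx3y the values were -1.61 (adjusted p = 0.0583) for Bbc3 and -0.95 (0.0645) for Bcl2. Mcl1 showed a ratio difference of -0.64 with an adjusted p of 0.101, and -1.28 with 0.00316 without those arrays.

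The other ratio comparisons gave 0 called members in limma. TGFb against IL2 alone had 1 member at an unadjusted p under 0.05 (5.78% of all genes were called), TGFb with IL6 against TGFb had 2 (0.279%), and IL6 against IL2 alone had 0 (0%). The widest of these differences was that of Bbc3 in TGFb against IL2 alone, -0.86 ± 0.34 (adjusted p = 0.157).

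Of the 10 genes, 6 have more than 1 probe, and the probes did not always show the same difference. For Bcl2 in TGFb with IL6, the other probes differed by -0.67 (adjusted p = 0.00196, over all probes in limma) and -0.60 (0.0838) between Treg and T-effector samples, beside -0.87 for the tested probe. In IL6 they differed by -0.43 (0.0431) and -0.72 (0.0814), beside -0.10 for the tested probe. The ratio difference of Bcl2 between TGFb with IL6 and IL6 was thus -0.24 (0.352) and 0.12 (0.847) on these probes, and -0.77 on the tested probe alone. The T-effector difference of Bcl2 between the same conditions was 0.31 (0.107) and 0.23 (0.669), beside 0.74.

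For Mcl1, the other probe showed 0.67 (adjusted p = 0.0202 in limma) in T-effector and 0.61 (0.0447) in Treg samples for TGFb with IL6 against TGFb. For Bcl2l11, the other probes, both much dimmer, showed 0.51 and 0.24 in Treg and 0.38 and 0.15 in T-effector samples in that comparison, and none passed the test (adjusted p 0.104 to 0.593). For Bak1, the other probe showed -0.03 in Treg and -0.12 in T-effector samples for TGFb with IL6 against IL6, and neither passed. That probe was nearly as bright as the tested one (mean log2 signal 8.15 beside 8.49) and well above background on all 13 arrays in both samples. For Bcl2l1, the other probes, well above background on only 5 and 8 of the 13 Treg channels, showed -0.09 and -0.10 in Treg and -0.07 and -0.29 in T-effector samples in the same comparison. Bid, Bax, Bbc3 and Pmaip1 have 1 probe each. The 10 spots of the Bax, Bcl2l1 and Bcl2 probes had a median SD within an array of 0.18, 0.162 and 0.103 (log2 ratio).

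**Figure D4:**
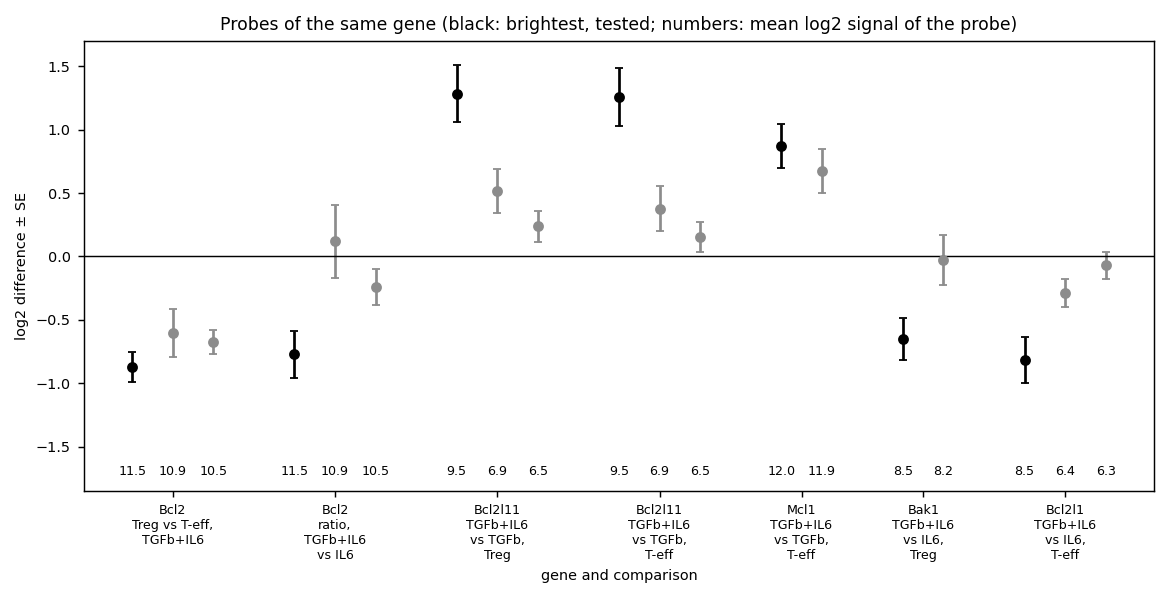
Log2 difference ± SE by probe for the members with several probes, the tested probe marked. For Bcl2 in TGFb with IL6 all 3 probes lie below 0 between Treg and T-effector samples (-0.87, -0.67 and -0.60), while the Bak1 probes differ for TGFb with IL6 against IL6 in Treg samples (-0.65 and -0.03).

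Over the 26 channels, with the mean of each dye removed, signals of members of different roles correlated to differing degrees. Signals of Bid correlated at r = 0.73 with Bak1, 0.65 with Bax and 0.65 with Bcl2l1, and at -0.64 with Bcl2. Bcl2l11 correlated at 0.59 with Mcl1 and at -0.55 with Bbc3, and Bcl2l1 at -0.55 with Mcl1. Channels of 1 array share hybridization and conditions share slides, so these values describe the 26 channels only. Among 19925 genes without missing spots, the nearest pattern to Bid was that of BC003324 (r = 0.97), to Bcl2l11 that of Scap2 (0.93), to Mcl1 that of Uvrag (0.92), to Bcl2 that of Rpl22l1 (0.89), to Bax that of Gusb (0.88), to Bbc3 that of Phlda3 (0.87) and to Bak1 that of Gyg (0.87).

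Other genes of the death machinery were taken from lists of the family and its neighbours. Of 15 further family members, 13 were on the array and 12 were tested. Of these 12, 5 were lower and 0 higher in T-effector samples of TGFb with IL6 than of IL6, and 3 were lower and 0 higher in Treg samples. Of all genes, 6.06% were lower in that T-effector comparison and 5.33% in that Treg comparison. The T-effector differences were -1.52 for Bcl2a1b and -1.39 for Bcl2a1c, copies of the survival gene A1, -1.46 for Bnip3, a mitophagy receptor, and -1.05 for Bcl2l14. The Bcl2a1 copies are nearly identical and their probes may not tell them apart. In Treg samples the differences were -1.05 for Bnip3, -0.70 for Bcl2a1c and -0.47 for Bnip3l. Against TGFb, Bcl2a1c was lower in TGFb with IL6 in Treg samples (-0.69), and Bcl2a1b and Bcl2a1c were lower in T-effector samples (-1.17 and -1.0).

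Of 14 genes of the apoptosome and caspases, 2 were higher and 2 lower in Treg samples of TGFb with IL6 than of IL6, and 2 higher and 1 lower in T-effector samples. Of all genes, 4.99% were higher and 5.33% lower in Treg samples, and 5.29% higher and 6.06% lower in T-effector samples. Diablo, whose product frees caspases from their inhibitors, was among the higher ones, by 0.83 in Treg and 0.38 in T-effector samples. Of 10 death receptor genes, Fas, whose product receives a death signal, was higher in TGFb with IL6 than in TGFb (0.64 in Treg and 0.44 in T-effector samples), and Fasl, its ligand, was lower (-1.05 and -1.18). Of 8 genes of the p53 axis, Perp was higher in the Treg samples of all 4 conditions than in their T-effector samples (0.60 to 1.25). Cdkn1a, a cell cycle inhibitor, was lower in T-effector samples of TGFb with IL6 than of IL6 (-1.17) and of TGFb (-0.76).

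For each probe, the authors' deposited table gives 1 log2 value in each condition. Its values correlated at 0.91 to 0.94 with the log ratios of the scanner's processed signals, Treg over T-effector, with slopes of 0.90 to 1.13. With the normalized log ratios used in this report, before removal of the dye term, they correlated less, at 0.75 to 0.80, with slopes of 1.47 to 1.81. In the authors' deposited table Bcl2 stood at -0.92 in TGFb with IL6, and Bbc3 at 1.09 in IL6 and 0.69 in IL2 alone. The sign of the tested probe in the authors' deposited table was that of the fit for 10 of 10 members in TGFb with IL6, 9 in TGFb, 7 in IL6 and 9 in IL2 alone.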

How the data were processed

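Treg and T-effector RNA was read on 13 two-colour Agilent arrays of 45018 spots, 1639 of them controls. The authors deposited scanner intensities, namely mean signal and median local background per dye, and processed intensities that were background-subtracted and dye-normalized by the scanner software, per the file headers. The deposited log10 ratio is of processed Cy5 over Cy3, per the file headers. The version was Agilent Feature Extraction 9.5.1.1, per the submitters' processing notes. The authors' deposited table of log2 values has no stated scale, which was set against the arrays. No count depth exists for arrays, and their number limits the precision.

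In R 4.3.3 with limma 3.58.1, background was corrected by normexp (offset 50, with spots flagged for local background kept out of the parameter fit), followed by loess normalization of each array's log ratios. Spots marked as outliers were set to missing, and spots of a probe were averaged. A probe was kept if 3 or more of its 26 channels stood well above background and at most 3 arrays were missing. A gene is the files' gene name, represented by its brightest probe, and 20061 genes were tested. Sample ratios were fitted over all 13 arrays with a dye term (8 residual degrees of freedom). Conditions were compared by a separate-channel fit after Aquantile normalization (intraspot correlation 0.43, 17 residual degrees of freedom), with limma's separate-channel model written so that missing spots are allowed. Both were tested on simulated data. The members and gene lists were chosen with earlier results of these data known. All members are named. Of other lists, up to 4 called genes per comparison with the largest differences could be named, and the 3 genes of nearest pattern were computed per member, of which the nearest is given. Single values of some genes of these lists are not reported here.

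Arrays are numbered in the order of the labels. Arrays 1, 2 and 3 of TGFb with IL6 and of TGFb share slide and dye. The log ratios of same-numbered arrays deviated from their condition means together (r = 0.756, 0.727 and 0.534, against -0.68 to 0.106 for other numbers). Deviations within TGFb cancel over its arrays, so a positive r for same numbers in itself lowers the others. These arrays were taken as pairs only in the alternative with the array number as a block. The main fits, with their SEs and p-values, do not use the pairing. Alternatives were no dye term, processed signals, another background fit, other normalizations and filters, single probes, slide or array number as a block, removal of spatial trends, and omission of arrays or slides. Omission of slide E and of the IL6 arrays without Ddx3y was chosen after seeing the data.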

Additional observations from a re-analysis of the deposited data

Results flagged for a closer look

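Among 30 groups of 4 values (10 genes in Treg signal, T-effector signal and ratio of TGFb with IL6), 1 held a value far from the rest. Bcl2l1 read 8.08 in the Treg sample of TGFb with IL6 array 3, with the other arrays at 8.25, 8.26 and 8.29, and chance alone marks about 1 group in 20. The Treg to T-effector ratio differed between TGFb with IL6 and IL6 for Bbc3 (-1.32, adjusted p = 0.0447 in limma) and for Bcl2 (-0.77, adjusted p = 0.0457). For Bcl2 the other probes gave -0.24 and 0.12.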

How the results depend on the processing

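Of the 22 calls, all 22 held with Agilent's processed signals, with the stricter filter and, on the same tested probes, with adjustment over all probes, and all 5 ratio calls held with spatial trends removed. Without slide B 11 of 22 held, without slide E 5, and without the IL6 arrays lacking Ddx3y 12, where fewer arrays remain. The cause of the other changes was not tested. Arrays (their number and dim probes such as Bad) limit the precision.

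The counts of called members that moved by over 1.5 times were as follows. For Treg against T-effector in TGFb with IL6 (1 in the report), the count was 3 with processed signals, 3 with spatial trends removed, 0 without slide B, 2 without slide E and 2 without the IL6 arrays lacking Ddx3y. In TGFb (0) it was 3 with spatial trends removed. In IL6 (1) it was 0 without the dye term, 2 with processed signals, 8 with median centring and 2 with spatial trends removed. In IL2 alone (1) it was 0 without the dye term, with background fitted over all spots, without the filter and with slide as a block, 3 with processed signals, 7 with median centring, 4 with spatial trends removed, 3 without slide E and 2 without the IL6 arrays lacking Ddx3y.

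For TGFb with IL6 against IL6 in Treg samples (4), the count was 1 without slide E. Omission of the IL6 arrays lacking Ddx3y leaves 1 IL6 array, and the differences of these 4 members without them are given above, gene by gene. In T-effector samples (5) it was 2 without slide B, 0 without slide E and 1 without those IL6 arrays. For TGFb with IL6 against TGFb in Treg samples (3) it was 1 without slide B, 1 without slide E and 5 without those IL6 arrays. In T-effector samples (3) it was 5 with processed signals, 5 with slide as a block and 5 without those IL6 arrays. For IL6 against IL2 alone in Treg samples (0) it was 1 without the dye term, 1 with processed signals, 1 without slide E and 1 without those IL6 arrays. For TGFb against IL2 alone in T-effector samples (2) it was 0 without slide E. The ratio of TGFb against IL2 alone (0) gave 7 with median centring. The ratio of TGFb with IL6 against IL6 (2) gave 1 without the dye term, 4 with processed signals, 1 with background fitted over all spots, 4 with median centring, 0 without the filter, 4 with spatial trends removed, 0 without slide B, 1 without slide E and 1 without those IL6 arrays.

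Leaving out 1 array at a time gave 1 to 2 called members for Treg against T-effector in TGFb with IL6 and 0 to 2 in both IL6 and IL2 alone. In Treg samples it gave 0 to 2 for TGFb against IL2 alone, 1 to 4 for TGFb with IL6 against IL6, 1 to 5 for TGFb with IL6 against TGFb and 0 to 2 for IL6 against IL2 alone. In T-effector samples it gave 0 to 2, 2 to 5 and 3 to 5 in the first 3 of these. The ratio gave 0 to 1 for TGFb against IL2 alone and 0 to 2 for TGFb with IL6 against IL6.

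With the array number as a replicate block, TGFb with IL6 against TGFb gave 2 called members in Treg samples, 3 in T-effector samples and 0 in the ratio, and the pairing changed no call but that of Bax. Under median centring the all-gene median shifted by up to -0.31 in IL6 and 0.42 in ratio differences. There the Bcl2 ratio difference between TGFb with IL6 and IL6 turned to 0.22 (adjusted p = 0.6), and without the IL6 arrays lacking Ddx3y the Treg difference of Bcl2l1 turned to 0.02. Over all genes, counts of calls ranged from 17 to 6130 for that ratio comparison (786 in the report) and from 394 to 9750 for Treg against T-effector in IL2 alone (2195 in the report). The analysis with the array number as a replicate block covered the only 2 conditions that share slides and dyes by number.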
